A study of Mus musculus with 16 samples.

Results

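Gene expression was compared between the hippocampus of 3xTg mice infused with an inhibitor of stearoyl-CoA desaturase (SCD) and the hippocampus of vehicle-infused wildtype mice, to describe which cell types and functions still differed from vehicle-infused wildtype after SCD inhibition. The comparison used 8 of the 16 mice of the study, 4 inhibitor-infused 3xTg mice (3xTg-S) and 4 vehicle-infused wildtype mice (WT-D), chosen by their group labels alone. 3xTg mice carry human mutant APP and human mutant tau transgenes, both driven by the neuronal Thy1.2 regulatory element, together with a knock-in allele, on a mixed B6 and 129 background. The wildtype mice were of the C57BL/6J x 129S1 background and were bred as a line of their own, so that strain and transgenes cannot be told apart. All mice were females of 10 months that had received a 28-day infusion into the lateral ventricle from an osmotic pump, after which the hippocampus was dissected and frozen. The paper used an abcam inhibitor in its original experiment and a Cayman inhibitor in a new cohort, and the sample titles here name Cayman. 3xTg-S pumps held 80 µM of the inhibitor (a Cayman product in the treatment label, an abcam product in the protocol shared by all samples) and WT-D pumps held the same 0.8% DMSO vehicle in artificial cerebrospinal fluid. 3xTg-S and WT-D mice therefore differed in genotype and in infusion at once, and the vehicle-infused 3xTg mice (3xTg-D) and inhibitor-infused wildtype mice (WT-S), 4 each, are given beside them, the latter for the lists and genes with the clearest differences. 3xTg-D against WT-D used the same WT-D mice, and 3xTg-S against 3xTg-D the same 3xTg-S mice, so that these values are set side by side and are not independent of each other.

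SCD enzymes place a double bond in saturated fatty acids to make monounsaturated ones such as oleic acid, which are stored in triglycerides and cholesteryl esters and built into membranes. In the brain, oligodendrocytes and astrocytes make much of the lipid, the choroid plexus and ependyma line the ventricles and face the infused fluid, and the beating cilia of ependymal cells move cerebrospinal fluid. 3xTg mice are a model of Alzheimer's disease in which amyloid and tau accumulate in neurons of the hippocampus and cortex. RNA was counted per gene from whole tissue, so that fewer cells of a type and less RNA per cell cannot be told apart.

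The libraries held 15413385 to 23590149 reads on genes over the 16 mice, and 15413385 to 22098297 in 3xTg-S against 19124838 to 23309273 in WT-D. Of 55335 listed genes, 33942 had at least 1 read and 16475 had enough to be tested. Markers of hippocampal neurons were present in every mouse compared, for example Prox1 of dentate granule cells (97.1 to 154 CPM, counts scaled to a common depth) and Fibcd1 of CA1 pyramidal cells (78.6 to 134 CPM). Several libraries stood apart. WT-D mouse 1 had summed antigen presentation transcripts of 1038 CPM against 168.3 to 182.5 CPM in the other WT-D mice, and WT-D mouse 4 had summed choroid plexus markers of 1416 CPM against 243.3 to 275.3 CPM. 3xTg-S mouse 2 differed from the other mice of its group by a chi-square per degree of freedom of 23.4 to 45.5 over gene counts, against 6.01 to 10.7 among the other 3, and had 7.82% of its reads outside genes. 3xTg-S mouse 1 had summed interferon response transcripts of 374.9 CPM against 117.2 to 143.2 CPM in its group. Outside the pair compared, 3xTg-D mouse 2 (18.5 to 34.4 with its own group, against 3.8 to 9.34 among the others) and WT-S mouse 4 (20.5 to 27.7, against 9.2 to 12.6) also differed from their groups by that chi-square. Values without single mice are given for the lists and genes where a call was lost or a count moved most.

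At the study's threshold (p of 0.01 or less in edgeR's quasi-likelihood test), 937 of 16475 genes were differentially expressed (DEGs) between 3xTg-S and WT-D, 5.69% of those tested. Of these, 372 were higher (2.26%) and 565 lower (3.43%) in 3xTg-S, and 261 (1.58%) also passed a Benjamini-Hochberg adjusted p of 0.05. The CPM of the 4 mice of each group did not overlap for 1573 genes (9.55%). The median log2 fold change over all tested genes was -0.01, and it was 0.39 among higher DEGs and -0.84 among lower DEGs. For genes of 1 to 10 CPM, 90 DEGs were higher and 256 lower, while above 100 CPM 51 were higher and 25 lower. The same threshold was passed by 4.91% of genes between 3xTg-D and WT-D and by 0.904% between 3xTg-S and 3xTg-D, and none of the latter passed the adjusted threshold. In that comparison 1043 genes had an unadjusted p under 0.05, both DESeq2 fits also gave 0 at the adjusted threshold, and edgeR gave 1 with no low-count filter, 2 without 3xTg-S mouse 4 and 204 with the replicate number as a block. Leaving out 3xTg-S mouse 2 raised the count between 3xTg-S and WT-D to 1545, with 785 higher and 760 lower.

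**Figure D1:**
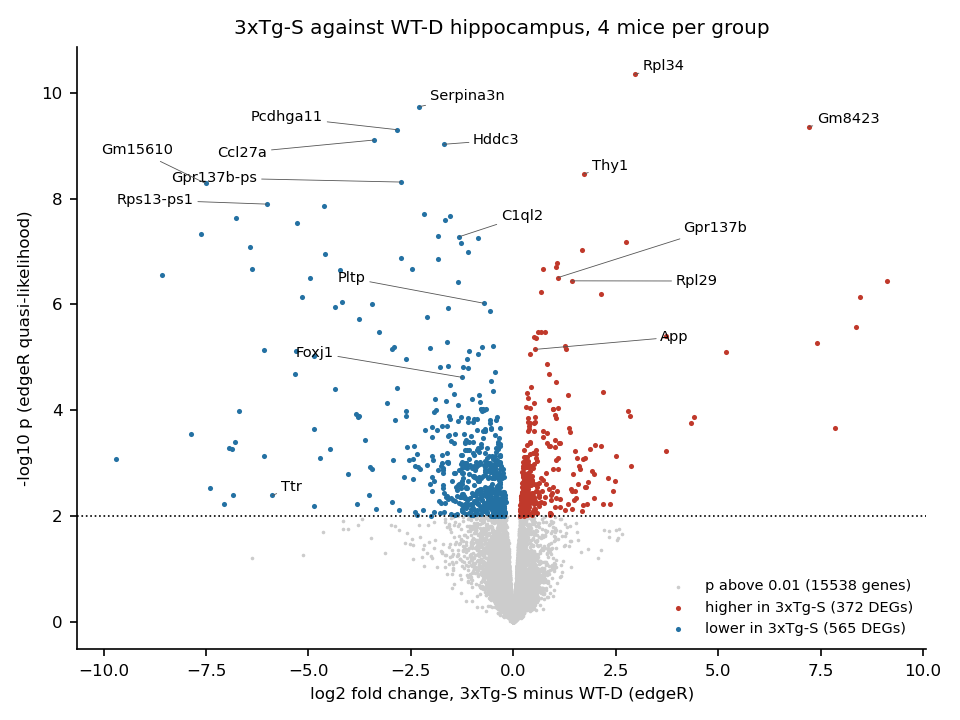
Each point is 1 of the 16475 genes tested. The x axis is the log2 fold change of 3xTg-S over WT-D and the y axis is -log10 of the edgeR p, with a dotted line at the threshold. The 372 higher DEGs (red) and 565 lower DEGs (blue) are coloured, with Rpl34 and Serpina3n at the top of each side.

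The loci that the transgenes concern were examined next. Thy1, whose regulatory element drives both transgenes and which encodes a neuronal surface glycoprotein (chromosome 9, 44043384 to 44048579, GRCm38), was at 541.9, 568.5, 572 and 517.2 CPM in WT-D mice 1 to 4 and at 1566, 2141, 1786 and 1886 CPM in 3xTg-S mice 1 to 4. All 3xTg-S mice lay above all WT-D mice, and the log2 fold change was 1.73 ± 0.09 (SE; adjusted p = 7.99e-06), against 1.78 in 3xTg-D. WT-S mice were at 534.8 to 625.5 CPM. Thy1 reads can also come from the transgenes, and how the counting treated them was not tested. App, the amyloid precursor, was at 1597, 1660, 1578 and 1631 CPM in WT-D and at 2234, 2628, 2337 and 2307 CPM in 3xTg-S, so that it was higher in every 3xTg-S mouse (log2 fold change 0.54 ± 0.06, adjusted p = 0.00167, and 0.51 in 3xTg-D). Mapt, which encodes tau, was not a DEG (0.11 ± 0.05, adjusted p = 0.40), although its 4 values of 509.9 to 553.1 CPM in 3xTg-S did not overlap those of 463 to 500.4 CPM in WT-D. Whether reads of the human APP and tau transgenes were counted at App and Mapt was not tested either, so that these values may not be those of the mouse genes alone.

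Of the other genes with the smallest p, most differed from WT-D by a similar amount in 3xTg-S and in 3xTg-D. Rpl34, a protein of the large ribosomal subunit (chromosome 3, 130726831 to 130730398), was at 3.34, 3.65, 3.85 and 4.39 CPM in WT-D and at 31.3, 32.7, 27.7 and 28.5 CPM in 3xTg-S. Its values were separated by a wide margin (log2 fold change 2.96 ± 0.10, adjusted p = 7.35e-07, and 3.14 in 3xTg-D). Capza1, an actin filament capping protein, rose by 1.69 on the log2 scale (1.64 in 3xTg-D), Rnf169, a ubiquitin ligase of the DNA damage response, by 0.73 (0.63), Tma7 by 1.07 (1.20), Rpl29 by 1.42 (1.64) and 2010315B03Rik by 1.04 (1.03), and the noncoding Gm10524 by 2.76 (2.59). The pseudogene Gm8423 had 4 reads over the 4 WT-D mice and 563 over the 4 3xTg-S mice, 163 times as many after scaling to depth (95% exact interval from counting error, 63.4 to 601). Ribosomal proteins such as Rpl34 and Rpl29, and Tma7, have near-identical processed copies in the mouse genome, so that the split of their reads is uncertain. Gpr137b and the pseudogene Gpr137b-ps on the same chromosome went in opposite directions, by 1.09 and -2.75 on the log2 scale (1.04 and -2.40 in 3xTg-D), and reads of these near-identical sequences may likewise be split.

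Serpina3n, a secreted serine protease inhibitor made by reactive astrocytes and oligodendrocytes (chromosome 12, 104406729 to 104414329), had the smallest p among lower genes. It was at 250.4, 205.5, 223.1 and 202.9 CPM in WT-D and at 41.3, 49.9, 47.9 and 43.0 CPM in 3xTg-S. No value overlapped, and the log2 fold change was -2.29 ± 0.09 (adjusted p = 1.5e-06), beside -2.17 in 3xTg-D, while WT-S mice lay with WT-D at 201.7 to 216.8 CPM. Hddc3, a phosphohydrolase, was at 28.6, 29.1, 31.3 and 28.6 CPM in WT-D and at 10.3, 9.21, 8.67 and 8.59 CPM in 3xTg-S (-1.69 ± 0.08, adjusted p = 2.57e-06, and -1.20 in 3xTg-D). Mcm6, a subunit of the replicative helicase, fell by 2.18 on the log2 scale (-1.93 in 3xTg-D), and the noncoding A930005H10Rik by 1.54 (-1.62). The chemokine gene Ccl27a fell by 3.41 (-3.05 in 3xTg-D), and has near-identical copies nearby. 3 short or pseudogene transcripts were almost absent from 3xTg-S. Gm15610 had 313 reads over WT-D and 1 over 3xTg-S, 270 times as many in WT-D (interval 48.1 to 10700), Rps13-ps1 had 265 and 3 reads, 76.1 times as many (25.8 to 372), and Rpl3-ps1 had a log2 fold change of -4.63 ± 0.29 (adjusted p = 2.05e-05). All genes named in this and the preceding paragraph kept their call with any mouse left out.

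DEGs were unevenly spread over the chromosomes. On chromosome 13, 82 of 631 tested genes (13%) were DEGs and on chromosome 18 10.7%, against 2.47% on chromosome X and 5.69% over all genes. In windows of 10 Mb with at least 20 tested genes, the median share of DEGs was 4.5%, and 17 of 246 windows reached 15%. The window with the highest share was at 120 to 130 Mb of chromosome 1, the home of Mcm6 and C1ql2, with 10 DEGs of 32 genes (31.2%), and 25% of its genes were DEGs in 3xTg-D. A window at 130 to 140 Mb of chromosome 3, around Rpl34, had 15 of 51 (29.4%), and windows at 60 to 70 Mb and 110 to 120 Mb of chromosome 13 had 23 of 79 (29.1%) and 11 of 39 (28.2%). Pseudogenes were DEGs more often (10.7%) than protein-coding genes (5.62%) and long noncoding genes (5.23%). These shares are descriptions with no test.

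**Figure D2:**
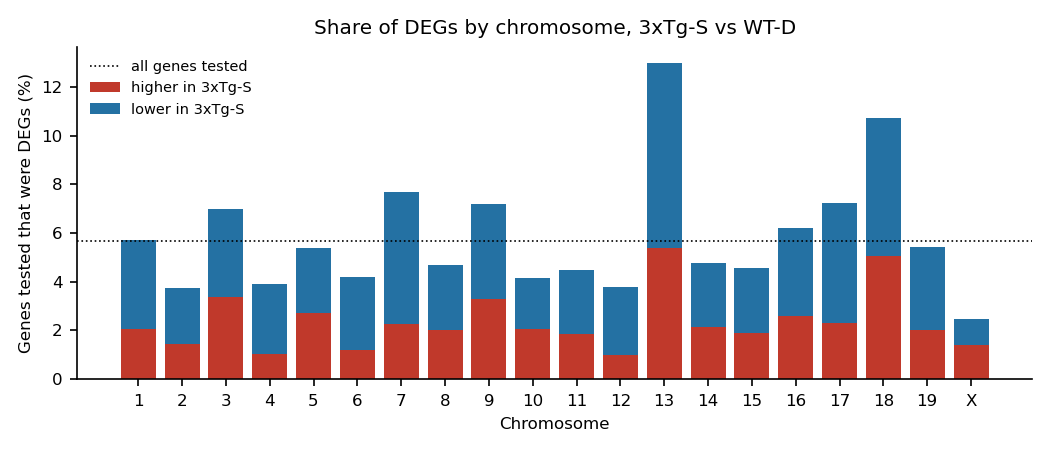
Bars give the share of tested genes that were DEGs between 3xTg-S and WT-D on each chromosome (y axis, percent), split into those higher (red) and lower (blue) in 3xTg-S, and the dotted line marks the 5.69% of all genes tested. Chromosome 13 (13%) and chromosome 18 (10.7%) stand above the line and chromosome X (2.47%) below it.

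Among 20 cell type marker lists, the ependyma and motile cilia list had the highest share of DEGs (70.0%). 7 of its 10 tested genes were lower in 3xTg-S than in WT-D and none was higher, against 3.43% of all genes lower, and all 10 had a negative log2 fold change (median -0.97, range -1.25 to -0.29, against -0.01 over all genes). The values of 7 of the 10 lay below WT-D without overlap, against 4.42% of all genes. Summed over the list, levels were 40.9, 36.1, 48.8 and 38.2 CPM in WT-D and 23.9, 24.0, 24.9 and 22.3 CPM in 3xTg-S, every 3xTg-S mouse lying below every WT-D mouse. In 3xTg-D the sums were 44.7, 29.4, 34.8 and 30.6 CPM, overlapping those of WT-D and above every 3xTg-S mouse, with a list median of -0.17 against WT-D and 1 lower DEG. In WT-S they were 42.9, 29.9, 32.1 and 33.1 CPM, also above every 3xTg-S mouse. Between 3xTg-S and 3xTg-D, 5 of the 10 genes were lower at the unadjusted threshold (median -0.69), against 0.904% of all genes called, and none passed the adjusted threshold with all mice and no block.

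Foxj1, the forkhead factor that directs the building of motile cilia (chromosome 11, 116330704 to 116335399), was at 9.59, 6.29, 9.56 and 7.81 CPM in WT-D and at 2.88, 4.10, 3.53 and 3.62 CPM in 3xTg-S. It was lower in every 3xTg-S mouse, with a log2 fold change of -1.25 ± 0.17 (adjusted p = 0.00448). 3xTg-D mice were in between, at 7.14, 5.16, 5.57 and 4.58 CPM (-0.57 against WT-D), and WT-S mice were at 6.71, 5.39, 6.19 and 5.26 CPM. Ccdc153, a coiled-coil protein of the axoneme, fell by 0.86 on the log2 scale (SE 0.17, adjusted p = 0.0390) and was 0.06 higher in 3xTg-D. Rsph1, a radial spoke head protein, fell by 0.72 (SE 0.16, adjusted p = 0.0579, and -0.10 in 3xTg-D), and Cfap126, which places cilia on the cell, by 1.20 (SE 0.26, adjusted p = 0.0558, and -0.14 in 3xTg-D). Dynlrb2, a dynein light chain, Hydin, a central pair protein, and Dnah12, a dynein heavy chain, were the other lower DEGs (-1.13, -0.98 and -0.95), while Tmem212 (-0.98), the tektin Tekt1 (-0.64) and Spag6l (-0.29) did not reach the threshold. The count of lower DEGs in the list was 5 without WT-D mouse 3, 3xTg-S mouse 2 or 3xTg-S mouse 4, 6 or 7 without any other, 6 to 9 under the other settings and 2 at an adjusted p of 0.05. The levels were low, at under 10 CPM for most members, and counting error is a larger part of the spread there.

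**Figure D3:**
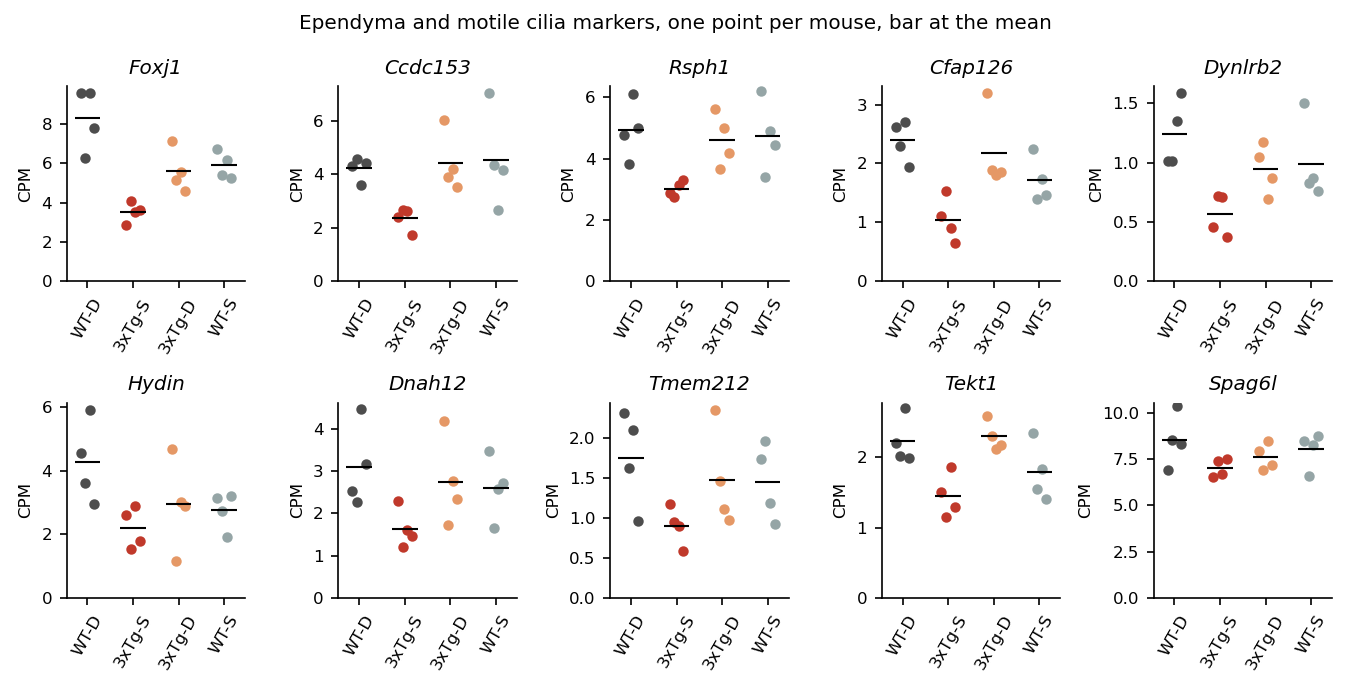
Points are the CPM (y axis, linear, from 0) of each mouse for the 10 tested genes of the ependyma and motile cilia list, by group on the x axis, and the bar is the mean of the 4 mice. 3xTg-S lies lowest in the panels of Foxj1, Ccdc153 and Rsph1, where none of its mice overlaps WT-D.

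A wider set of axonemal genes was counted in the same way. Of 63 tested genes of the axonemal dynein, Cfap, radial spoke, tektin, Spag and Drc families, the dynein assembly factors and Odf3b, a list drawn up after the first had been seen and holding several of its members, 17 were lower and 1 higher, against 3.43% and 2.26% of all genes, and 53 had negative values, where 48.8% of all genes had positive ones (median -0.35, and -0.22 in 3xTg-D with 5 lower and 1 higher). Spag16, a central pair protein, was at 1.82, 1.39, 1.40 and 1.48 CPM in WT-D and at 0.523, 0.620, 0.771 and 0.486 CPM in 3xTg-S (log2 fold change -1.36 ± 0.23, adjusted p = 0.0178, and -0.14 in 3xTg-D). The inner arm dynein light chain Dnali1 fell by 1.55 on the log2 scale (adjusted p = 0.0169, and -0.39 in 3xTg-D), Cfap161 by 1.63 (adjusted p = 0.0212, and -0.48 in 3xTg-D) and the dynein heavy chain Dnah6 by 1.36 (adjusted p = 0.0123, and -0.55 in 3xTg-D). Cfap54, a central pair protein, also fell by 1.53 (adjusted p = 0.0330), but by 1.44 in 3xTg-D as well, and the higher gene was the radial spoke gene Rsph3a (0.62; 0.74 in 3xTg-D). Without WT-D mouse 1 and WT-D mouse 4 together, a setting chosen after seeing the data, the list held 9 lower DEGs and no higher one.

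Regulatory factor X (RFX) proteins act with Foxj1 at ciliary genes and bind X-box sequences, so the 250 bases before the start of each gene were searched on both strands (RefSeq promoters, GRCm38.p6; 8 of the 10 list members and 11961 of all tested genes had 1). GTTGCCA was found in 2 of the 8, Hydin and Tekt1, and in 4.01% of all promoters, and GTTGCTA in 2 of the 8, Dynlrb2 and Hydin, and in 3.58% of all. The forkhead sequence TGTTTAC was found in none of the 8 and in 2.73% of all. The stretches below are shown because these genes were lower in 3xTg-S (Tekt1 by direction only), and capitals mark the match, which reads TGGCAAC or TAGCAAC where it lies on the other strand.
Hydin, chr8:110266947-110266976, plus strand: cactctgcggttgctgTGGCAACagatggt
Hydin, chr8:110266879-110266908, plus strand: attacctggcgGTTGCTAgggacgcccgcc
Dynlrb2, chr8:116504959-116504988, plus strand: gcctggttgccTAGCAACgggggaagcgtt
Tekt1, chr11:72361883-72361912, minus strand: cgttgcgtccgtccgGTTGCCAtagagacc
A match is a run of letters and was not measured as a bound site.

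The choroid plexus, which lies beside the ependyma, could be carried into the dissected tissue to a varying degree. Of 9 tested choroid plexus markers, 2 were lower and none higher, against 3.43% and 2.26% of all genes (median -2.02, and -1.64 in 3xTg-D). Ttr, the thyroxine carrier transthyretin, was at 1.82, 31.6, 22.2 and 638.2 CPM in WT-D and at 4.12, 5.06, 1.73 and 0.756 CPM in 3xTg-S, so that the level in WT-D rested on mouse 4 and the groups overlapped. Its log2 fold change was -5.88 ± 1.60 (adjusted p = 0.115) and -2.67 without WT-D mouse 4, and the other DEG was coagulation factor F5 (-2.97 ± 0.85, adjusted p = 0.131), at -1.38 without WT-D mouse 4. Ttr lost its call without 3xTg-S mouse 1, 3 or 4 and F5 without any of the 4 3xTg-S mice, and the list held no DEG in either DESeq2 fit and 9 with no low-count filter. Summed markers ran from 176.7 to 232.0 CPM in 3xTg-S, below the 243.3 to 275.3 CPM of WT-D mice 1 to 3. They were at 689.9, 206.3, 198.1 and 190.5 CPM in WT-S and at 262.7, 203.6, 256.4 and 230.3 CPM in 3xTg-D. Without WT-D mouse 4 the list median was -0.65 with 3 lower DEGs, and the ependymal count was then 6, and 6 also with the choroid plexus score of each mouse as a covariate. The choroid plexus count was 4 without WT-D mouse 1, 1 without 3xTg-S mouse 2 and 0 without 3xTg-S mouse 1, 3 or 4. Markers of meningeal and perivascular fibroblasts had 2 lower DEGs of 10, against 3.43% of all genes, with a median of -0.90 (-0.72 in 3xTg-D). These were the GABA transporter Slc6a13 (-1.09) and the collagen chain Col1a2 (-0.98). Both lost their call with any of 6 of the 8 mice left out, the list had 6 lower DEGs without 3xTg-S mouse 1 and none without WT-D mouse 2, WT-D mouse 3 or 3xTg-S mouse 3, and the part of tissue margins in the ciliary values was not tested further.

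**Figure D4:**
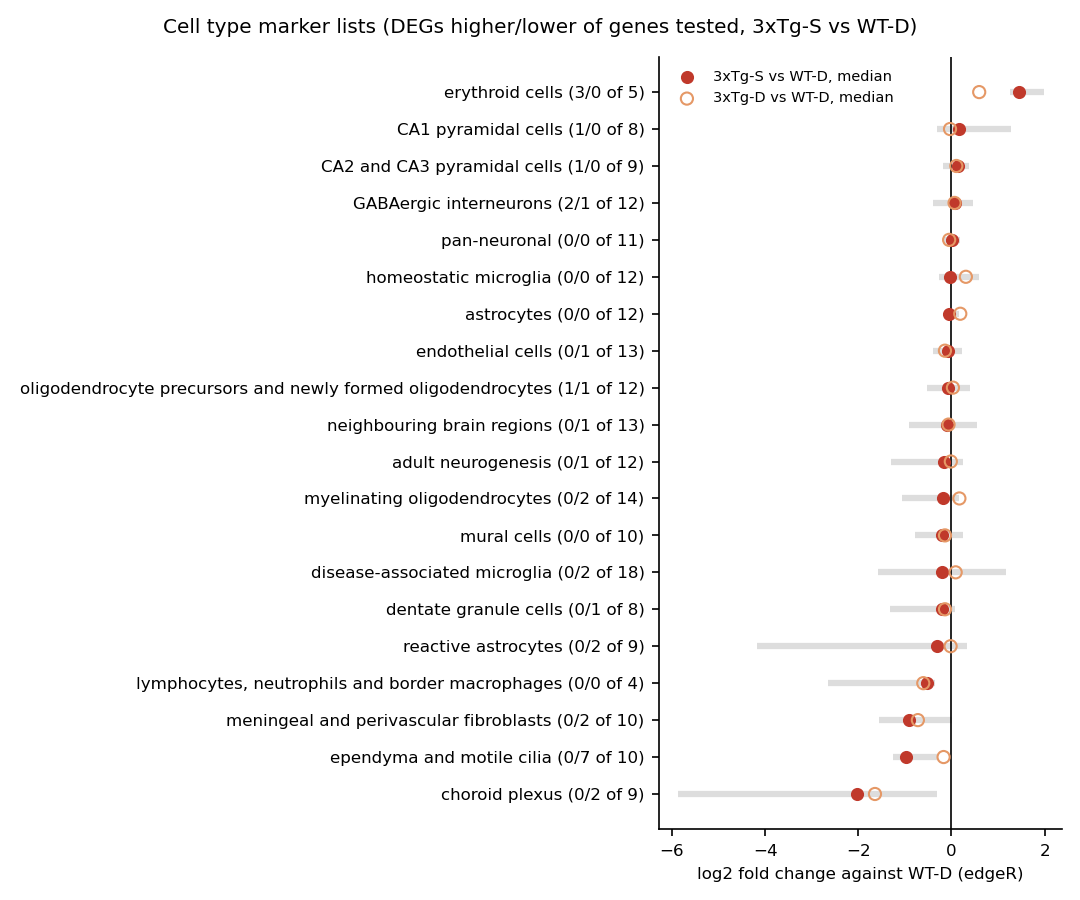
Each line is a cell type marker list with its number of higher and lower DEGs and of genes tested. The filled point is the median log2 fold change of 3xTg-S over WT-D (x axis), the grey bar runs from the lowest to the highest member, and the open point is the median of 3xTg-D over WT-D. The ependymal median lies at -0.97 in 3xTg-S and at -0.17 in 3xTg-D.

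The low values of antigen presentation genes rested on 1 mouse. All 18 tested members had a negative log2 fold change (median -1.62), none was a DEG, and the median was 0.07 without WT-D mouse 1. Without WT-D mouse 2, 3 or 4 or 3xTg-S mouse 1, 4, 2, 3 and 1 of them were lower DEGs. H2-K1, an MHC class I heavy chain, was at 136.7, 21.7, 22.5 and 20.7 CPM in WT-D and at 35.1, 16.1, 18.1 and 14.3 CPM in 3xTg-S, and Cd74, the MHC class II invariant chain, at 105.8, 1.54, 3.25 and 3.12 CPM in WT-D and at 0.702 to 5.40 CPM in 3xTg-S. In each case WT-D mouse 1 was high and the other values overlapped. The complement component C3, at 70.0, 9.70, 1.70 and 3.83 CPM in WT-D and at 2.49, 1.34, 1.80 and 0.756 CPM in 3xTg-S, was a DEG (log2 fold change -3.80 ± 1.10, adjusted p = 0.134) that was not called without WT-D mouse 1 (-1.71). It was not called either without any of the 4 3xTg-S mice.

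**Figure D5:**
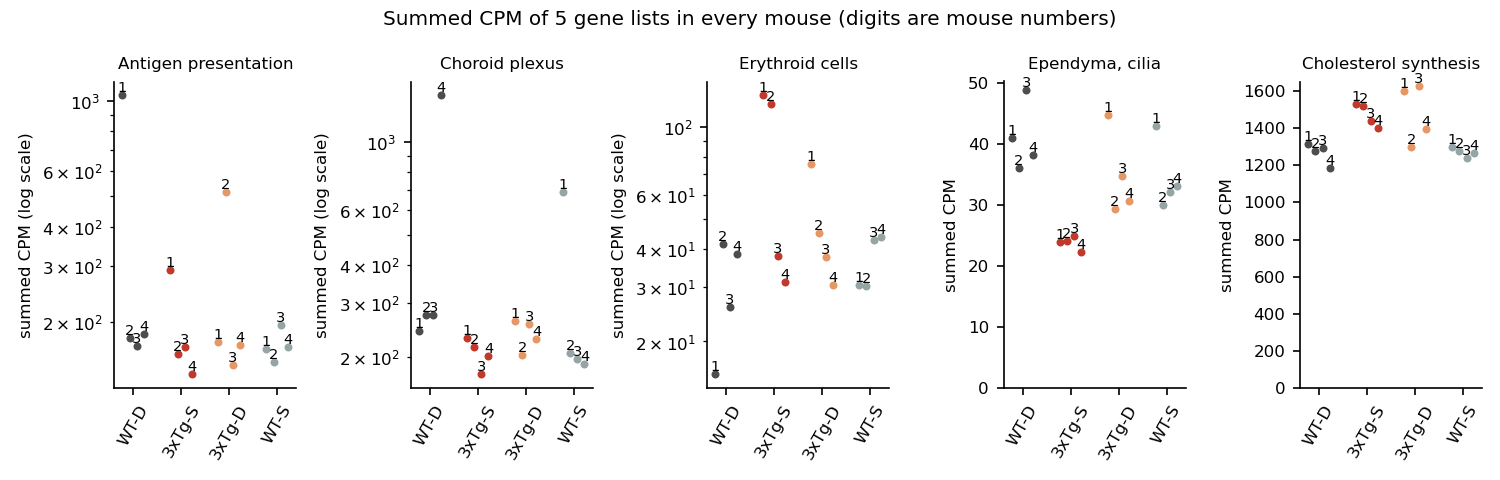
Points are the summed CPM of 5 lists in each mouse, with the mouse number above, by group on the x axis. The first 3 panels have a log axis and the last 2 a linear axis from 0. WT-D mouse 1 stands apart for antigen presentation (1038 CPM) and WT-D mouse 4 for choroid plexus (1416 CPM), while the 4 3xTg-S mice lie together for ependyma and cilia (22.3 to 24.9 CPM).

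Glial marker lists otherwise held few DEGs. None of 12 astrocyte markers and none of 12 homeostatic microglia markers was a DEG (medians -0.05 and -0.04, and 0.31 for microglia in 3xTg-D). Gfap, the astrocyte intermediate filament, had a log2 fold change of -0.02 (0.57 in 3xTg-D), Apoe of -0.08 and the microglial receptor Trem2 of -0.07, none of them a DEG. The 3xTg-D values of these lists included mouse 2, whose summed markers were 897 CPM for homeostatic microglia (501.5 to 604 CPM in the other 3) and 1299 CPM for reactive astrocytes (620.9 to 739.6 CPM). Of 9 reactive astrocyte genes 2 were lower, Serpina3n and the ferroxidase Cp (-0.82 ± 0.21, adjusted p = 0.102), and 4 were without WT-D mouse 4. Of 18 genes of disease-associated microglia 2 were lower and 3 had positive values (median -0.20, and 0.09 in 3xTg-D). As background to both lists, 3.43% of all genes were lower DEGs. Gpnmb, a lysosomal glycoprotein of lipid-laden phagocytes, was at 11.7, 7.35, 7.91 and 8.53 CPM in WT-D and at 5.04, 3.96, 4.24 and 5.08 CPM in 3xTg-S (-0.98 ± 0.17, adjusted p = 0.0185, and -0.70 in 3xTg-D), and the groups did not overlap. The tetraspanin Cd9, also abundant in myelin, fell by 0.53 (adjusted p = 0.133, and -0.03 in 3xTg-D), but was not called without any of WT-D mice 1 and 2 and 3xTg-S mice 3 and 4.

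Myelin genes went opposite ways in 3xTg-S and 3xTg-D by their medians. The mean log2 CPM of the list nevertheless overlapped between WT-D, 3xTg-D and 3xTg-S. Of 14 markers of myelinating oligodendrocytes, 2 were lower in 3xTg-S (median -0.18), against 3.43% of all genes. In 3xTg-D 3 were higher (Mbp and Mobp among them, median 0.17), against 2.44% of all genes. Between 3xTg-S and 3xTg-D 5 were lower in 3xTg-S (median -0.36), against 0.625% of all genes. The summed markers of WT-D mice were 5519, 4855, 5267 and 5725 CPM. Those of 3xTg-S mice were 5311, 7341, 4784 and 4739 CPM, so that these groups overlapped. Each 3xTg-D mouse lay above every WT-D mouse, with sums of 6951, 7271, 6196 and 6727 CPM. Mag, the myelin-associated glycoprotein, was at 118.1, 88.1, 99.6 and 112.3 CPM in WT-D and at 79.6, 83.7, 68.5 and 83.6 CPM in 3xTg-S, with no overlap (log2 fold change -0.42 ± 0.10, adjusted p = 0.0721, and 0.02 in 3xTg-D). Mog, a glycoprotein of the outermost myelin, fell by 0.51 (SE 0.13, adjusted p = 0.0883, and -0.09 in 3xTg-D). Myelin basic protein, Mbp, was not a DEG in 3xTg-S. Its levels there were 1874, 2842, 1924 and 1703 CPM, mouse 2 being the high value. Without that mouse 7 of the 14 markers were lower than in WT-D (4 without 3xTg-S mouse 1). With the choroid plexus score as a covariate none was. Of 12 genes of oligodendrocyte precursors and newly formed oligodendrocytes, the lineage factor Olig2 fell by 0.53 (adjusted p = 0.0974, and -0.51 in 3xTg-D) and the receptor Gpr17 rose by 0.39 (adjusted p = 0.121, and 0.33 in 3xTg-D), the latter not being called without any of WT-D mice 1 and 2 and 3xTg-S mouse 3. Without 3xTg-S mouse 2 that list held 4 DEGs, where 1545 of all 16475 genes were called.

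The enzymes that the inhibitor targets were not DEGs by the edgeR test that gave the 937 DEGs. Scd1 was at 196.1, 191.1, 170.6 and 162.3 CPM in WT-D and at 155.4, 171.3, 139.6 and 124.7 CPM in 3xTg-S, with overlapping values (log2 fold change -0.30 ± 0.10, adjusted p = 0.218, and -0.19 in 3xTg-D), and Scd1 became a lower DEG when 3xTg-S mouse 2 was left out (-0.38). It was also a lower DEG with all mice in both DESeq2 fits (-0.30 each), with no filter, with the replicate block and with the share of reads outside genes as covariate (-0.27 to -0.31). Scd2, the form most abundant in brain, was at 1354 to 1452 CPM in WT-D and at 1209 to 1500 CPM in 3xTg-S (-0.08 ± 0.07), Scd3 was at -0.34 ± 0.17, and Scd4 had too few reads to be tested. These are RNA levels, and the activity of the enzymes was not measured. Srebf1, the transcription factor SREBP1 of fatty acid synthesis, was at 36.6, 33.0, 31.7 and 33.3 CPM in WT-D and at 27.4, 27.7, 26.7 and 23.9 CPM in 3xTg-S, lower in every mouse (-0.37 ± 0.07, adjusted p = 0.0392, and -0.11 in 3xTg-D). Fads6, a fatty acid desaturase family member, was at 29.0, 28.1, 29.4 and 28.5 CPM in WT-D and at 21.0, 22.2, 18.1 and 21.0 CPM in 3xTg-S (-0.50 ± 0.07, adjusted p = 0.00737, and -0.32 in 3xTg-D). No other gene of fatty acid synthesis or of the elongases and desaturases was called by this test, and none of the acyl-CoA synthetases, beta-oxidation or sphingolipid synthesis genes. The DEGs of fatty acid synthesis were 2 in both DESeq2 fits and 3, of which 2 were higher, without 3xTg-S mouse 2, where 1 sphingolipid gene was called as well.

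The DEGs of lipid transport and storage were all lower. Of 13 genes of brain lipoprotein handling 2 were lower DEGs and 4 had positive values (median -0.076). Of 15 genes of lipid droplets and triglyceride turnover 2 were lower DEGs and 6 had positive values (median -0.065). Over all genes 3.43% were lower DEGs. Pltp, the phospholipid transfer protein that remodels lipoproteins, was at 37.7, 37.3, 35.3 and 35.6 CPM in WT-D and at 24.3, 20.7, 21.0 and 23.5 CPM in 3xTg-S. The 3xTg-D mice were in between, at 28.1 to 29.7 CPM, and no 2 of these 3 groups overlapped, while WT-S mice were at 29.9 to 34.4 CPM. The log2 fold change was -0.73 ± 0.07 in 3xTg-S (adjusted p = 3.40e-04) and -0.34 in 3xTg-D, and between 3xTg-S and 3xTg-D it was -0.37 (adjusted p = 0.722). Lcat, which esterifies lipoprotein cholesterol, fell by 0.29 (adjusted p = 0.123), and of the lipid droplet coat genes Plin5 fell by 1.42 (adjusted p = 0.0678, and -0.43 in 3xTg-D), at under 1 CPM, and Plin3 by 0.42 (adjusted p = 0.114, and 0.11 in 3xTg-D). The call was lost without any of 5 of the 8 mice for Lcat and of 3 for Plin3, and the calls of Lcat, Plin5 and Plin3 were lost with the choroid plexus score as a covariate.

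Most cholesterol synthesis genes lay slightly above WT-D. Of 23 tested members, 4 were higher and none lower against 2.26% of all genes higher. Of them, 22 had a positive log2 fold change, against 48.8% of all genes (median 0.11, and 0.20 in 3xTg-D with 3 higher). The values of 8 lay above WT-D without overlap, against 5.13% of all genes. Summed levels were 1313, 1279, 1294 and 1185 CPM in WT-D and 1531, 1519, 1441 and 1401 CPM in 3xTg-S, every 3xTg-S mouse above every WT-D mouse and above the 1238 to 1300 CPM of WT-S. The median between 3xTg-S and 3xTg-D was -0.02. Cyp51, the lanosterol demethylase, rose by 0.31 on the log2 scale (SE 0.07, adjusted p = 0.0583, and 0.32 in 3xTg-D), Sqle, squalene epoxidase, by 0.23 (SE 0.06, adjusted p = 0.0902; 0.25), Hmgcs1, which makes HMG-CoA, by 0.31 (SE 0.09, adjusted p = 0.114; 0.36) and the sterol carrier Stard4 by 0.24 (SE 0.07, adjusted p = 0.161; 0.20). The count was 2 without WT-D mouse 4 or without 3xTg-S mouse 1, 6 without 3xTg-S mouse 4, and 0 with the choroid plexus score as a covariate, at an adjusted p of 0.05, and without WT-D mice 1 and 4 together. In the promoters of the 16 members with 1 in the table, the sterol regulatory element core CACCCCAC was found in Hmgcs1 alone (3.34% of all promoters), in the stretch shown here with the match in capitals, and the E-box CACGTGAC in Insig1, Hsd17b7 and Sc5d (3.64% of all), none of them a DEG.
Hmgcs1, chr13:119690204-119690233, plus strand: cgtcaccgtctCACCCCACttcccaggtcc

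Neuronal identity genes held no DEG as a class, while single markers of subfields did. None of 11 pan-neuronal genes was called (median 0.02), and 1 was without 3xTg-S mouse 1 or mouse 2. C1ql2, a secreted synapse organiser of dentate granule cells, was at 42.2, 35.7, 37.7 and 43.4 CPM in WT-D and at 17.9, 14.3, 17.3 and 15.2 CPM in 3xTg-S, with no overlap (log2 fold change -1.32 ± 0.09, adjusted p = 4.55e-05, and -1.01 in 3xTg-D), and was the only DEG of 8 granule cell markers. Spink8, a protease inhibitor of CA1 pyramidal cells, was at 8.66, 9.51, 9.51 and 9.45 CPM in WT-D and at 17.9, 30.4, 22.7 and 19.9 CPM in 3xTg-S (1.28 ± 0.15, adjusted p = 0.00167, and 1.13 in 3xTg-D), and the other 7 CA1 markers were not called (2 of them were without 3xTg-S mouse 1). Lhx6, the transcription factor of parvalbumin and somatostatin interneurons, was at 13.1 to 14.7 CPM in WT-D and at 17.7 to 18.6 CPM in 3xTg-S (0.41 ± 0.07, adjusted p = 0.0191, and 0.29 in 3xTg-D). Of the peptides of interneurons, Vip rose by 0.46 (adjusted p = 0.0828, and 0.56 in 3xTg-D) and Npy fell by 0.39 (adjusted p = 0.0524, and -0.14 in 3xTg-D), from 35.0 to 44.5 CPM down to 29.4 to 32.8 CPM. Bdnf, a neurotrophin induced by activity, was at 73.7, 70.2, 63.0 and 71.3 CPM in WT-D and at 53.4, 58.1, 58.5 and 47.1 CPM in 3xTg-S (-0.38 ± 0.08, adjusted p = 0.0562, and -0.25 in 3xTg-D). It was the only DEG of 23 immediate early genes. Of these, 3 had positive values, against 48.8% of all genes (median -0.19, and -0.25 in 3xTg-D). The median was -0.07 without WT-D mouse 1. It was 0.002 without WT-D mice 1 and 4 together, a setting chosen after seeing the data. The mean log2 CPM of the list overlapped, at 4.522 to 4.982 in WT-D and 4.361 to 4.754 in 3xTg-S. In this list 2 genes were called without WT-D mouse 2 or mouse 3.

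Synaptic lists showed small differences of mostly 1 direction. Over all genes 48.8% had positive values, 2.26% were higher DEGs and 3.43% lower DEGs. Of 34 genes of synaptic vesicle release, 27 had positive values and 2 were higher DEGs (5.88%), the active zone proteins Rims2 (0.25) and Rims3 (0.36). Of 41 synaptic adhesion genes 31 were positive, with 3 higher and 1 lower. None of 27 postsynaptic density genes and none of 24 glutamate receptor genes was a DEG, although 23 of the latter were positive (median 0.13, and -0.02 in 3xTg-D). Without 3xTg-S mouse 2, 5 glutamate receptor genes were higher, where 785 of all 16475 genes were higher. Adhesion DEGs numbered 1 without WT-D mouse 1 or 2, 2 without WT-D mouse 4 and 0 without 3xTg-S mouse 3. With the choroid plexus score as a covariate no vesicle release gene was called. Rims2 was not called without WT-D mouse 1, nor Rims3 without any of 6 of the 8 mice. Cntnap2, a neurexin family protein of the axon, fell by 0.20 on the log2 scale in 3xTg-S and by 0.43 in 3xTg-D, and its call in 3xTg-S was lost without any of 5 of the mice.

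Of 76 potassium channel genes 2 were higher and 3 lower (6.58%, a share close to the 5.69% of all genes called), and 4 and 4 without 3xTg-S mouse 2. The calcium-binding channel partner Kcnip3 was at 53.4, 68.3, 53.7 and 64.6 CPM in WT-D and at 44.9, 44.6, 42.1 and 45.0 CPM in 3xTg-S, with no overlap (log2 fold change -0.46 ± 0.09, adjusted p = 0.0268, and -0.44 in 3xTg-D). Kcnj16, an inward rectifier of astrocytes, fell by 0.33 (adjusted p = 0.0471, and -0.34 in 3xTg-D), Kcnmb1, a subunit of calcium-activated channels that is common in smooth muscle, by 1.43 at under 2 CPM (adjusted p = 0.0258, and -0.49 in 3xTg-D), and Kcnc2, a channel of fast-spiking interneurons, rose by 0.31 (adjusted p = 0.0516, and 0.09 in 3xTg-D). Slc38a3, which exports glutamine from astrocytes, was at 47.1, 44.4, 45.4 and 46.3 CPM in WT-D and at 35.8, 31.5, 34.8 and 34.8 CPM in 3xTg-S, lower in every mouse (-0.44 ± 0.06, adjusted p = 0.00369, and -0.09 in 3xTg-D). WT-S mice were at 43.8 to 49.4 CPM. It was the only DEG among 10 genes of the glutamine and glutamate cycle (2 without 3xTg-S mouse 2). Of 56 clustered protocadherins, which give neurons their surface identity and share exons, 4 were higher and 5 lower (9 of 56 against 5.69% of all genes, 3 with the choroid plexus score as a covariate and 4 without WT-D mice 1 and 4), with Pcdhga11 at -2.85, Pcdhgb6 at -1.36 and Pcdhga4 at 1.26 on the log2 scale (-2.73, -1.51 and 1.24 in 3xTg-D), and their shared 3' exons make the split of reads between them uncertain.

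Most ribosomal and respiratory chain genes lay slightly below WT-D. Of 81 cytosolic ribosomal proteins 14 had positive values (median -0.13), with 2 higher DEGs, Rpl34 and Rpl29, and 1 lower, Rplp0 (-1.58 ± 0.16; -1.20 in 3xTg-D). This share of 3.7% was below the 5.69% of all genes called. Over all genes 48.8% had positive values and 3.43% were lower DEGs. Of 80 nuclear genes of oxidative phosphorylation 10 were positive (median -0.11) and 4 were lower (5%). These were the cytochrome oxidase subunits Cox7c (-1.23 ± 0.16, adjusted p = 0.00302, and -0.95 in 3xTg-D), Cox6b2 (-1.27 ± 0.27, adjusted p = 0.0463; -0.75) and Cox6a2 (-0.72 ± 0.21, adjusted p = 0.138; -1.01), and the complex I subunit Ndufv3 (-0.21 ± 0.07, adjusted p = 0.164; -0.07), of which the last pair lost their call without any of 5 or 6 of the mice. Without 3xTg-S mouse 2 the lower DEGs numbered 15 for ribosomal proteins and 20 for oxidative phosphorylation, where 760 of all 16475 genes were lower. Without WT-D mouse 2 or 3 or 3xTg-S mouse 1 or 3 the DEGs of oxidative phosphorylation numbered 2. Rplp0 and Cox7c have near-identical processed copies.

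Glutathione reductase, Gsr, which keeps glutathione reduced, was at 36.8, 37.8, 36.8 and 34.1 CPM in WT-D and at 29.7, 29.2, 26.1 and 25.8 CPM in 3xTg-S, with no overlap (log2 fold change -0.41 ± 0.07, adjusted p = 0.0176, and -0.29 in 3xTg-D). Of lysosomal genes the galactosidase Glb1 rose by 0.34 (adjusted p = 0.104, and 0.37 in 3xTg-D) and the glucosaminidase Naglu fell by 0.60 (adjusted p = 0.137; -0.24), each losing its call without any of 4 of the mice. Of 5 erythroid genes, markers of blood in the tissue, 3 were higher (Alas2, Hbb-bt and Hba-a2), against 2.26% of all genes. The list median was 1.45, and 0.60 in 3xTg-D. Sums over the 5 genes were 15.7, 41.4, 25.8 and 38.6 CPM in WT-D and 126.5, 119.0, 38.1 and 31.3 CPM in 3xTg-S. Thus 3xTg-S mice 1 and 2 were high and the other pair lay within WT-D. None was called without WT-D mouse 1 or without 3xTg-S mouse 1, 1 without WT-D mouse 3 or 3xTg-S mouse 2, and 5 without 3xTg-S mouse 4.

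The genes whose difference from WT-D was widest beyond that of 3xTg-D, ranked by the p between 3xTg-S and 3xTg-D, were Calml4, Npr3, Pltp, Spag16 and Dnali1. Calml4, a calmodulin-like protein, was at 1.39, 1.11, 1.90 and 2.20 CPM in WT-D and at 0.719, 0.382, 0.578 and 0.540 CPM in 3xTg-S (log2 fold change -1.59 ± 0.30, adjusted p = 0.0276, and -0.22 in 3xTg-D). Npr3, the clearance receptor of natriuretic peptides, was at 34.9, 32.0, 34 and 30.1 CPM in WT-D and at 41.8, 42.5, 43.2 and 43.3 CPM in 3xTg-S, higher in every mouse (0.36 ± 0.06, adjusted p = 0.0187, and 0.08 in 3xTg-D). Of these 5 genes, 2 are of the axoneme, and all 5 had an adjusted p of 0.722 between 3xTg-S and 3xTg-D. The genes whose difference was most reduced were Dipk1c (0.63 in 3xTg-S against 1.14 in 3xTg-D), Cntnap2 (-0.20 against -0.43), Gm14295 (-0.63 against -0.95), Gm47240 and the receptor tyrosine kinase Kit (-0.35 against -0.55). Gm47240 had no read in WT-D and 77 over the 3xTg-S mice, 29.8-fold higher than a floor of 3 reads over the group. The lower limit of the 95% exact interval from counting error was 23.6. Kit was at 127.4, 128.8, 106.3 and 108.0 CPM in WT-D and at 84.2, 95, 96.5 and 99.5 CPM in 3xTg-S, so that all 4 3xTg-S mice were still below WT-D (adjusted p = 0.0807). Dipk1c and Gm14295 each lost the call without any of 5 of the 8 mice.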

How the data were processed

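Hippocampal RNA of 16 female mice (4 groups of 4, grouped by their labels and numbered 1 to 4) was sequenced from poly(A) libraries (KAPA mRNA HyperPrep, single-end). The deposited values are raw read counts per gene, which the authors made from reads trimmed with Trimmomatic 0.35 and aligned with STAR 2.5.1b to GRCm38. Whether molecular identifiers and strand were used in counting is not given in the sources used here, so that overlapping and antisense genes are uncertain. The library lines that name no gene were left out of library sizes and amounted to 7.82 to 15.14% of reads in the 8 mice of the comparison. Depth was 15413385 to 23590149 reads on genes per mouse, and intervals on single genes cover counting error only.

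Counts were filtered over all 16 mice (edgeR filterByExpr, minimum count 10, minimum total 15), scaled by TMM, and tested two-sided between the 2 groups of each pair (8 mice) with the quasi-likelihood test of edgeR 4.0.16 in R 4.3.3. A DEG has an unadjusted p of 0.01 or less, the threshold of the study, and adjusted p-values are Benjamini-Hochberg values over all 16475 genes from the same fit. SE is that of the log2 fold change. Each mouse is a separate animal. The percentage of all genes called is given with the counts of each comparison as background to the list counts, and no test was made over a list. The study's own tests used DEGES scaling with a DESeq2 likelihood ratio test, which was an alternative here (DESeq2 1.42.0), beside median-ratio size factors, other low-count filters, all 16 mice in 1 fit, replicate number as a block, covariates for the choroid plexus score and for the share of reads outside genes, the adjusted threshold, and each mouse left out. The fits were tested on simulated data.

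The genes named are Thy1, App and Mapt; the 10 higher and 10 lower DEGs with the smallest p and no overlap between groups; Scd1 to Scd4; up to 4 DEGs of each of 58 gene lists by smallest p; and the 5 DEGs whose difference from WT-D was widest beyond, or most reduced against, that of 3xTg-D. Others named (Prox1, Fibcd1, Gfap, Apoe, Trem2, H2-K1, Cd74, Mbp, further cilia genes, the promoter matches) are members of those lists, or of the wider axonemal list, named after their values were seen. Some genes that this rule names are not reported here, although counts over lists and over all named genes include them. Members and lists were chosen with earlier results of these data known. Promoter sequences were read from the RefSeq table of GRCm38.p6.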

Additional observations from a re-analysis of the deposited data

Results flagged for a closer look

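Of the 208 sets of 4 values (104 named genes in WT-D and in 3xTg-S), 12 held a mouse whose gap to its nearest neighbour passed Dixon's 95% critical value for 4 samples, 9 in WT-D and 3 in 3xTg-S, where chance gives about 1 in 20. WT-D mouse 4 was far above the others for Ttr (638.2 CPM against 1.82 to 31.6) and F5 (17.5 against 1.44 to 2.5), both made by the choroid plexus, and below them for Hmgcs1 (256.1 against 299.2 to 305.4 CPM) and Ndufv3 (47.1 against 53.5 to 54.5 CPM). WT-D mouse 1 was above the others for C3 (70.0 against 1.70 to 9.70 CPM) and Mcm6 (18.2 against 14.6 to 15.1 CPM) and below them for Spink8 (8.66 against 9.45 to 9.51 CPM). WT-D mouse 3 was above the others for Col1a2 (10.6 against 7.11 to 7.51 CPM) and Dnali1 (3.55 against 2.20 to 2.35 CPM). In 3xTg-S, mouse 4 was apart for Gm15610 (0.054 CPM against 0 in the others) and Dnali1 (0.540 against 0.963 to 1.05 CPM), and mouse 3 for Kcnip3 (42.1 against 44.6 to 45.0 CPM). Among these genes the call of C3 was lost without WT-D mouse 1, that of Hmgcs1 without WT-D mouse 4 and that of Col1a2 without WT-D mouse 3.

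Whether the effect of the inhibitor differed between genotypes was tested by the interaction over all 16 mice. No gene passed an adjusted p of 0.05 in edgeR's quasi-likelihood test (smallest adjusted p = 0.788), and 821 of 16475 had an unadjusted p under 0.05.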

How the results depend on the processing

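Of the 102 named DEGs, 64 were called with every mouse left out, 53 also under every other setting at the unadjusted threshold, and 47 at an adjusted p of 0.05. None of the 107 named genes reversed direction in any setting. The 937 DEGs between 3xTg-S and WT-D became 261 at the adjusted threshold, 664 to 1545 with 1 mouse left out (1545 without 3xTg-S mouse 2, 50.8% of them higher against 39.7%) and 492 without WT-D mice 1 and 4 together, a setting chosen after seeing the data. They were 1031 and 1023 with DESeq2 (median-ratio and DEGES scaling), 946 with median-ratio factors in edgeR, 1261 with no filter, 749 with at least 10 counts in every mouse, 1005 in 1 fit of 16 mice, 625 with the choroid plexus score and 1379 with the share of reads outside genes as covariate, and the share higher was 30.2% with the choroid plexus score. The 809 DEGs between 3xTg-D and WT-D became 305 at the adjusted threshold and 651 to 914 with 1 mouse left out. The 149 between 3xTg-S and 3xTg-D became 355 with no filter, 249 in 1 fit of 16 mice, 77 with the choroid plexus score and 68 to 802 with 1 mouse left out (802 without 3xTg-S mouse 2). At the adjusted threshold edgeR with all mice and both DESeq2 fits called 0 there (1043 genes at an unadjusted p under 0.05 in edgeR), while edgeR called 1 with no filter, 2 without 3xTg-S mouse 4 and 204 with the replicate block; the cause of these changes was not tested.

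Mice with the same number deviated together by a correlation of 0.062 to 0.257 between 3xTg-S and WT-D, which is not above 0.1 for every pair. Mice of different numbers correlated at -0.237 to 0.122 (mean -0.059, against 0.176 for the same number). Nothing in the labels pairs them, and whether the number stands for shared handling was not tested. 7 of the 8 mice correlated best with their own number. Between 3xTg-S and 3xTg-D the range was 0.016 to 0.391 (mean 0.213), against -0.469 to 0.232 (mean -0.066) for different numbers, with 4 of 8. With the replicate block the counts were 1075 (3xTg-S against WT-D), 944 (3xTg-D against WT-D) and 1133 (3xTg-S against 3xTg-D). Depth limits statements on genes under 1 CPM, of which 30 were higher and 111 lower DEGs.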

Other observations

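Further DEGs between 3xTg-S and WT-D lay in lists not described above. Of 65 axon guidance genes 5 were higher and 2 lower, among them the netrin receptor Dcc (log2 fold change 0.44 ± 0.11, adjusted p = 0.0918; 0.20 in 3xTg-D), the plexin Plxnc1 (0.31) and the semaphorins Sema4f (0.29) and Sema3b (-1.18), and the total was 12 without 3xTg-S mouse 2 and 3 without WT-D mouse 1 or 3xTg-S mouse 4, 0 with the choroid plexus score as a covariate and 2 without WT-D mice 1 and 4, where 5.69% of all genes were called. Of 17 neuropeptide and granin genes 1 was higher and 3 were lower, against 2.26% and 3.43% of all genes. The peptides Cort (-0.80) and Vgf (-0.30) were lower beside Npy, and Vip was higher. Without WT-D mouse 2 or 3 or 3xTg-S mouse 1 the total was 2. The calcium channel subunit Cacng6 rose by 1.04 (adjusted p = 0.121; 1.35 in 3xTg-D), not being called without WT-D mouse 1 or 3xTg-S mouse 2. Rgs9, a regulator of G protein signalling that is abundant in striatum and stood here among markers of neighbouring regions, fell by 0.79 (adjusted p = 0.0351; -0.82 in 3xTg-D), the only DEG of 13 such markers. The endothelial and cartilage protein Itm2a fell by 0.40 (adjusted p = 0.0958; -0.29 in 3xTg-D), the only DEG of 13 endothelial markers, and was not called without WT-D mouse 2 or 3xTg-S mouse 3, and no mural cell marker was called. None of the interferon response (21 genes), heat shock (8), unfolded protein and integrated stress response (17), glucocorticoid-responsive (11) or mitochondrially encoded respiratory chain (8) genes was a DEG. The interferon median was -0.06 with all mice, -0.93 without 3xTg-S mouse 1 and 0.54 without WT-D mouse 1. Without 3xTg-S mouse 2, 2 of 7 nuclear long noncoding RNAs were higher DEGs, against 0 with all mice, and sodium, calcium and HCN channel DEGs were 4 against 2.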
